A study of Rattus norvegicus with 6 samples.

Results

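The interferon response genes *Stat2*, *Irf1*, *Irf7*, *Irf9*, *Mx1*, *Mx2*, *Isg15*, *Ifit3* and *B2m* were followed in replicating and quiescent rat β-cells. They were chosen by their names in the array files, and all 9 were found, on 11 of the 45598 probes of the array and among 21090 genes with a symbol. Islets came from young adult male Wistar rats, in 3 preparations of 4 rats each, and were cultured overnight with EdU, a thymidine analogue that is built into newly made DNA. Dispersed cells of both groups were fixed, permeabilised and sorted by size, granularity and Newport Green, a dye that binds zinc. The EdU-positive β-cells were the replicating group (3 arrays) and the EdU-negative β-cells the quiescent group (3 arrays), with 1 sample of each group from every preparation. The replicating fraction held far fewer cells than the quiescent fraction, and RNA of both was amplified before labelling with a single dye, Cy3. Each sample is a pool of sorted cells, so fewer cells of a type and less RNA per cell cannot be told apart.

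Type I interferons are cytokines released by cells that sense viral or other foreign nucleic acid. Type I interferons signal through JAK1 and TYK2 to STAT2, which joins IRF9 in the complex ISGF3 and binds the interferon-stimulated response element (ISRE) in the promoters of target genes, whereas interferon-γ acts on genes with the γ-activated site (GAS). In islets the pathway is best known from type 1 diabetes and from infection by enteroviruses, where β-cells raise MHC class I and antiviral proteins.

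Values are normalised log2 signals from the deposited table, and a log2 ratio is the mean difference of replicating over quiescent within preparations. All 11 probes of the 9 genes were well above background on all 6 arrays and none was saturated, with 1 spot per probe. The sort was read from marker genes. *Ins1* ranged from 15.92 to 17.20 and *Ins2* from 15.51 to 16.87 over the 6 arrays, with log2 ratios of 0.25 and 0.42 that did not pass the test (limma unadjusted p = 0.50 and 0.27). All 8 cell-cycle markers were higher in replicating β-cells, with a median log2 ratio of 3.50. The quiescent array of preparation 2 stood apart: its correlation with the other 5 arrays lay between 0.654 and 0.830, whereas the 3 replicating arrays correlated at 0.967 to 0.986 with each other. It also had 1583 spots marked as outliers, against 252 to 299 on the other arrays. The quiescent array of preparation 1 correlated at 0.867 to 0.887 with the replicating arrays and the quiescent array of preparation 3. The quiescent array of preparation 3 correlated at 0.943 to 0.969 with the replicating arrays, more than with those of its own group. Between 80.7% and 87.3% of probes were well above background on the replicating arrays and 85.6% to 98.4% on the quiescent arrays. Results that rest on preparation 2 are therefore given without it too, or preparation by preparation.

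In replicating β-cells 6 of the 9 genes had a log2 ratio above 0 (*Irf1*, *Irf7*, *Stat2*, *Irf9*, *B2m* and *Isg15*) and 3 had one below 0 (*Ifit3*, *Mx1* and *Mx2*), whereas 46.8% of all genes were above 0. The transcription factors *Irf1* and *Irf7* were higher by 3.17-fold and 2.67-fold, and these 2 genes alone passed the threshold of an unadjusted p of at most 0.05. No gene of the 9 was lower at that threshold. Over the whole array 5.8% of genes were higher and 3.6% lower by the same rule, which makes 9.41% in either direction. No probe of the array passed an adjusted p of 0.05 in limma, while 4379 probes, or 9.6%, had an unadjusted p of at most 0.05, so every call named here is one on unadjusted p. The median log2 ratio of the 9 genes was 0.59, beside -0.05 over all genes. It was 0.25 without preparation 2 and 0.33 with each gene taken as the median of its probes. In the latter fit *Irf9* was 0.09, because its other probe has no value on the quiescent array of preparation 2. That missing value lowered the median.

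**Figure D1:**
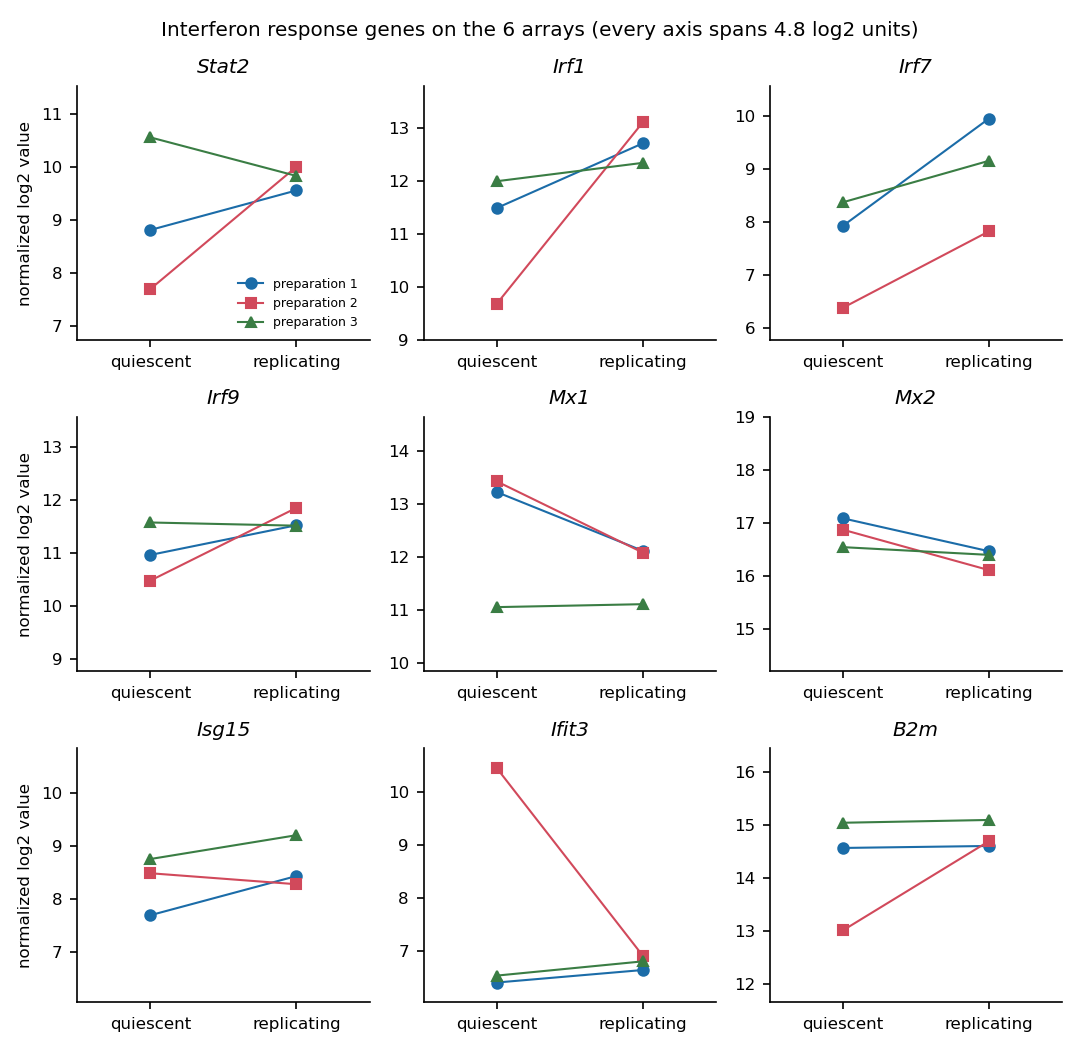
Normalised log2 value (vertical axis, every panel spanning the same number of log2 units) of each interferon response gene on the quiescent and the replicating array of each preparation, with a line joining the arrays of 1 preparation. The 3 lines of *Irf1* and of *Irf7* rise from quiescent to replicating, the 3 of *Mx2* fall, and the preparation 2 line is the steepest for all genes but *Irf7* and *Isg15*.

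The regulators *Irf1* and *Irf7* were the members past the threshold. *Irf1*, a transcription factor induced by interferon-γ, read 12.71, 13.11 and 12.35 in the replicating samples (preparations 1, 2 and 3) and 11.49, 9.68 and 12.00 on the quiescent arrays. Every replicating array lay above every quiescent array, a pattern seen in 9.69% of all genes, and the lowest value by far was that of the quiescent array of preparation 2. The log2 ratio was 1.66 ± 0.65 (SE, 95% interval 0.02 to 3.31, limma unadjusted p = 0.0481, adjusted p = 0.475). By preparation it was 1.22, 3.43 and 0.35. Without preparation 2 it was 0.78 (unadjusted p = 0.109) and without preparation 1 it was 1.89 (unadjusted p = 0.108), so the call was lost in both cases. The *Irf1* probe maps to chromosome 10, 39227520 to 39227579, on the plus strand of rn4.

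*Irf7*, the factor that amplifies type I interferon production, read 9.95, 7.82 and 9.15 on the replicating arrays and 7.92, 6.38 and 8.37 on the quiescent arrays. Its groups overlapped, because preparation 2 read low in both of its samples, yet the replicating array was the higher of the pair in every preparation, as in 16% of all genes. The log2 ratio was 1.42 ± 0.38 (SE, 95% interval 0.46 to 2.37, limma unadjusted p = 0.0122, adjusted p = 0.475), and by preparation 2.03, 1.44 and 0.78. It did not rest on preparation 2, without which it was 1.40 (unadjusted p = 0.0169). The call was lost without preparation 1 (1.11, unadjusted p = 0.116) and in the fit without the preparation block (1.42, unadjusted p = 0.0918). The *Irf7* probe maps to chromosome 1, 201456889 to 201456948, on the minus strand of rn4, and is printed here because it is the stretch of transcript behind that value.
Irf7 probe: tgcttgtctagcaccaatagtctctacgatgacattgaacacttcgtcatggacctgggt

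Promoters were searched for the ISRE and GAS elements of the interferon pathways: GAAA followed after any 2 bases by GAAA for ISRE, read on both strands, and TTCNNNGAA for GAS, which reads the same on both. The window ran from 250 bases before to 50 bases after the start of each RefSeq transcript in GRCr8, and 7 of the 9 genes had one. The ISRE letters stood in 3 of these 7 windows, beside 3.92% of 33469 windows in all and 39.4% of those of other interferon pathway genes. The GAS letters stood in 2 of the 7, beside 8.87% of all windows and 17.4% of those of the other pathway genes. No match of one motif overlapped a match of the other in these 7 windows, since none held both. The windows of *Irf1* and *Irf7* are shown as those of the genes past the threshold, and those of *Ifit3* and *B2m* as further genes with the ISRE letters, with the matching letters in capitals.
Irf1: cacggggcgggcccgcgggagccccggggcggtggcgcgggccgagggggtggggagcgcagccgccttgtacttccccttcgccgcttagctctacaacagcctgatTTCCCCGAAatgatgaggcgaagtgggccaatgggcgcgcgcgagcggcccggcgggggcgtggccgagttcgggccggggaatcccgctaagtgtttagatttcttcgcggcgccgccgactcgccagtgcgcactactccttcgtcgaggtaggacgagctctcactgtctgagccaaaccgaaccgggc
Irf7: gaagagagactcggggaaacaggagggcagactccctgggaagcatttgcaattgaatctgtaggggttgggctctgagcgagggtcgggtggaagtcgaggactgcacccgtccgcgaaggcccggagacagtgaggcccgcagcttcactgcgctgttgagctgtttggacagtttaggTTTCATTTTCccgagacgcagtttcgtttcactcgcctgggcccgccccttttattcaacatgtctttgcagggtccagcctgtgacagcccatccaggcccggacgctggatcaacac
Ifit3: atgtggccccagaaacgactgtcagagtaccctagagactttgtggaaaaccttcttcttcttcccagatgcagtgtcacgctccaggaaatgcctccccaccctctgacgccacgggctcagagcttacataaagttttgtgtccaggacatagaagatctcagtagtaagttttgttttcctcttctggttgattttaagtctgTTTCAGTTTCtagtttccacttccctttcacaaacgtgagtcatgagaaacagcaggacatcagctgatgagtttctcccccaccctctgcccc
B2m: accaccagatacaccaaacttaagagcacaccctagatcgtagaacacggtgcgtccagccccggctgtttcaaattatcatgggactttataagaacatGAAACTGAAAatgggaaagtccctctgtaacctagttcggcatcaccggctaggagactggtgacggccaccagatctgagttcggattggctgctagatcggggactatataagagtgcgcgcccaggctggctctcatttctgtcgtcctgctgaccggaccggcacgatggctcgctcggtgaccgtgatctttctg

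In the *Irf1* window (chr10:38417685-38417984, plus strand) the GAS letters TTCCCCGAA lay at -142 to -134 from the start. In the *Irf7* window (chr1:205799974-205800273, minus strand) the ISRE letters lay at -69 to -60. In the *Ifit3* window (chr1:241527076-241527375, plus strand) they lay at -44 to -35, and in that of *B2m* (chr3:129549080-129549379, plus strand) at -150 to -141. *Irf9* held GAS letters at -99 to -91, and the windows of *Stat2* and *Mx1* held neither motif. The 3 genes with ISRE letters spanned log2 ratios of -1.01 (*Ifit3*), 0.59 (*B2m*) and 1.42 (*Irf7*). A match of letters is a description of the window and does not show that a factor binds there.

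*Stat2* and *Irf9*, which encode parts of ISGF3, were not separated by group. *Stat2* read 9.56, 10.01 and 9.83 on the replicating arrays and 8.81, 7.70 and 10.56 on the quiescent arrays. The quiescent array of preparation 3 was the highest of all 6 and that of preparation 2 the lowest, so the replicating values lay inside the quiescent range. The log2 ratio was 0.78 ± 0.62 (SE, 95% interval -0.81 to 2.37, limma unadjusted p = 0.267). It was 0.75, 2.31 and -0.73 by preparation, 0.0095 without preparation 2 and 1.53 (unadjusted p = 0.0436) without preparation 3.

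*Irf9* read 11.52, 11.85 and 11.51 on the replicating arrays and 10.96, 10.47 and 11.57 on the quiescent arrays. The quiescent array of preparation 3 lay among the replicating values. The log2 ratio was 0.62 ± 0.40 (SE, 95% interval -0.39 to 1.64, limma unadjusted p = 0.175), and 0.25 without preparation 2. The other *Irf9* probe read 8.35, 7.56 and 8.26 on the replicating arrays and 6.84 and 8.17 on the quiescent arrays of preparations 1 and 3. Its spot on the quiescent array of preparation 2 was marked as an outlier and left out, so its log2 ratio of 0.80 ± 0.54 rests on preparations 1 and 3 alone (unadjusted p = 0.209). The first *Irf9* probe lies on chromosome 15, 33745741 to 33745800, the other at 33744668 to 33744727, and the *Stat2* probe on chromosome 7, 1580592 to 1580651, all on the plus strand of rn4.

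Of the 4 antiviral effectors none passed the threshold, and 1 log2 ratio was above 0 and 3 were below. *Mx1*, a GTPase of the dynamin family that traps viral components, read 12.13, 12.09 and 11.12 on the replicating arrays and 13.24, 13.44 and 11.06 on the quiescent arrays. Preparations 1 and 2 were lower in replicating β-cells and preparation 3 was level, with log2 ratios of -1.11, -1.34 and 0.06. The mean of -0.80 ± 0.40 (SE, 95% interval -1.83 to 0.23) did not pass the threshold (limma unadjusted p = 0.103). Without preparation 3 it was -1.23 (unadjusted p = 0.0314), and without preparation 2 it was -0.53 and did not pass the threshold.

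*Mx2*, the related GTPase, read 16.47, 16.12 and 16.40 on the replicating arrays and 17.09, 16.88 and 16.55 on the quiescent arrays. All 3 replicating values lay below all 3 quiescent values, as in 6.65% of all genes, with a narrow gap. The log2 ratio was -0.51 ± 0.32 (SE, 95% interval -1.33 to 0.31, limma unadjusted p = 0.173). The other *Mx2* probe read 8.70, 8.97 and 8.67 on the replicating arrays and 8.89, 8.23 and 8.64 on the quiescent arrays, with a log2 ratio of 0.19 ± 0.35 (unadjusted p = 0.601). The brighter probe thus read within the range of *Ins1*, far above the other probe, whose log2 ratio had the opposite sign. Which probe reports *Mx2* transcript was not tested. In rn4 the *Mx1* probe lies on chromosome 11, 37438580 to 37438639, on the minus strand, and the *Mx2* probes at 37572657 to 37572716 and 37575743 to 37575802 of the same chromosome on the plus strand.

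*Isg15*, a ubiquitin-like protein that is conjugated to other proteins, read 8.43, 8.28 and 9.20 on the replicating arrays and 7.69, 8.48 and 8.75 on the quiescent arrays. The groups overlapped, and preparation 2 ran against the others with log2 ratios of 0.74, -0.21 and 0.45. The mean was 0.33 ± 0.35 (SE, 95% interval -0.56 to 1.21, limma unadjusted p = 0.389). The *Isg15* probe lies on chromosome 5, 173034674 to 173034733, on the minus strand of rn4.

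*Ifit3*, an interferon-induced protein with tetratricopeptide repeats, read 6.64, 6.91 and 6.81 on the replicating arrays and 6.41, 10.46 and 6.54 on the quiescent arrays. A single array set its result: the quiescent array of preparation 2 was far above the other 5, which lay between 6.41 and 6.91. The log2 ratios by preparation were 0.24, -3.54 and 0.27, and the mean was -1.01 ± 0.84 (SE, 95% interval -3.16 to 1.14, limma unadjusted p = 0.283). Without preparation 2 the sign turned, to 0.25 (unadjusted p = 0.547). Its paralogs *Ifit1* and *Ifit2* had log2 ratios of -0.23 and 0.24, at values of 5.81 to 6.65, and read 6.65 and 5.99 on the quiescent array of preparation 2. The *Ifit3* probe lies on chromosome 1, 238575730 to 238575789, on the plus strand of rn4, and is printed as the only spot that carried the high value.
Ifit3 probe: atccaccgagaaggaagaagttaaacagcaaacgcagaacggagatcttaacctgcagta

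*B2m*, the light chain of MHC class I molecules, read 14.61, 14.70 and 15.10 on the replicating arrays and 14.57, 13.02 and 15.05 on the quiescent arrays. Preparations 1 and 3 were level between the groups, and the quiescent array of preparation 2 was the lowest of the 6. The log2 ratios by preparation were 0.04, 1.68 and 0.05, with a mean of 0.59 ± 0.45 (SE, 95% interval -0.57 to 1.75, limma unadjusted p = 0.248). Without preparation 2 the log2 ratio was 0.045. The *B2m* probe lies on chromosome 3, 108933795 to 108933854, on the plus strand of rn4.

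**Figure D2:**
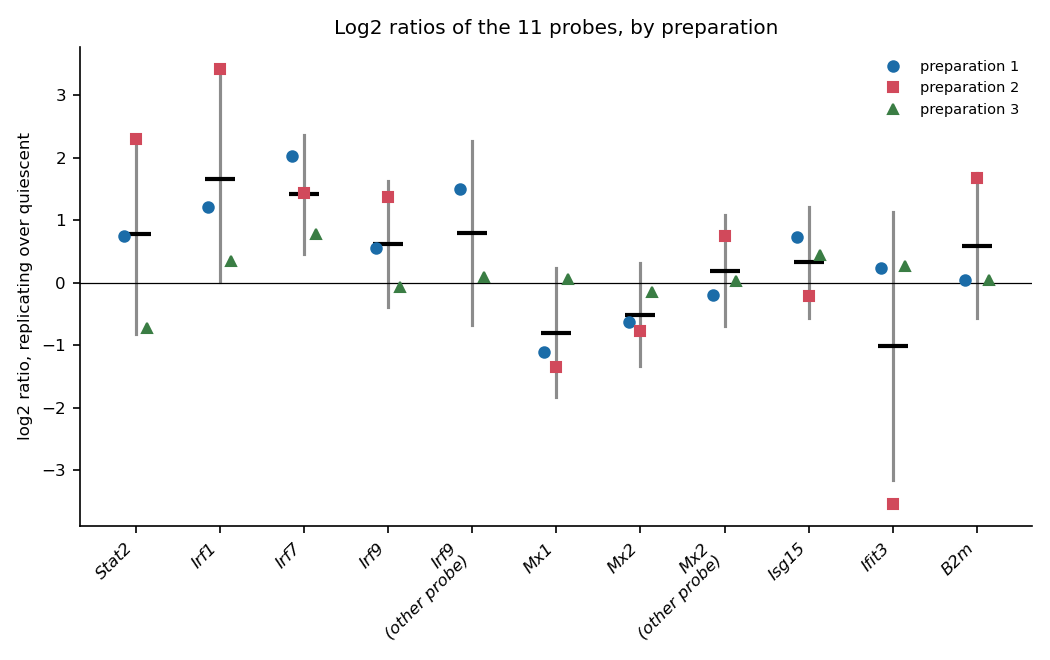
Log2 ratio of replicating over quiescent for each of the 11 probes of the interferon response genes, with points for the 3 preparations, a bar for the mean and a grey line for its 95% interval. Only the intervals of *Irf1* and *Irf7* lie above 0, and the preparation 2 points are the farthest from 0 for 7 of the 9 genes.

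The size of the differences followed the preparations. Preparation 2 gave the log2 ratio farthest from 0 for 7 of the 9 genes, and preparation 3 the one nearest to 0 for 6 of them. Among all genes with a value in every preparation the corresponding shares were 62.2% and 62.9%, so this order was common over the whole arrays. The median log2 ratio of the 9 genes was 0.56, 1.37 and 0.06 in preparations 1, 2 and 3, beside 0.02, -0.01 and -0.05 for all genes. *Irf1*, *Irf7* and *B2m* were higher in all 3 preparations, *Mx2* was lower in all 3 by its brighter probe (as in 19.6% of all genes) and the other 5 were mixed.

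**Figure D3:**
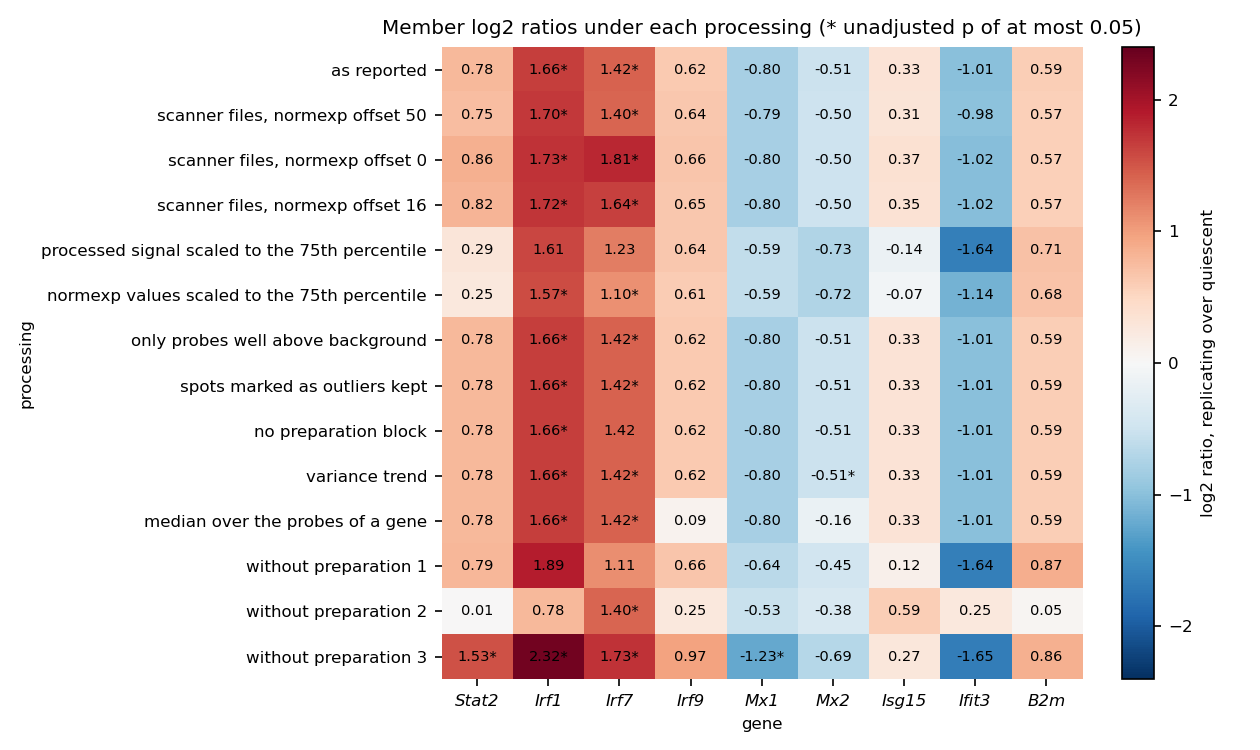
Log2 ratio of each interferon response gene (columns) under each processing of the arrays (rows), coloured from lower in replicating (blue) to higher (red), with an asterisk at an unadjusted p of at most 0.05. *Irf1* and *Irf7* stay above 0 in every row, *Ifit3* turns sign without preparation 2 and *Isg15* under both scalings to the 75th percentile.

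Beside the 9 genes, 150 of 162 listed genes of the interferon pathway were on the array, and 17 of them were higher and 1 lower in replicating β-cells at an unadjusted p of at most 0.05, with 5.8% and 3.6% as the shares over all genes. Their median log2 ratio was 0.20, with 93 above and 57 below 0. It was 0.27, 0.51 and 0.04 in preparations 1, 2 and 3. Scaling each array to its 75th percentile instead moved the median of all genes to -0.58 (processed signal) and -0.35 (normexp), and that of the pathway genes to -0.068 and -0.021, which is 0.51 and 0.33 above all genes, against 0.26 in the reported values. The 17 became 2 without preparation 1, 12 without preparation 2, 26 without preparation 3 and 3 on the scanner's processed signal, where 1.48%, 4.4%, 12.6% and 1.89% of all genes were higher. Without preparation 3 the count of lower pathway genes was 11, and 11.4% of all genes were lower in that fit. All 18 called genes kept their direction in all of these fits.

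Of the 7 interferon genes on the array, 1 had a log2 ratio above 0, and *Ifna5*, a type I interferon gene, was lower by the threshold (-1.15 ± 0.42, unadjusted p = 0.0399). The other *Ifna5* probe gave -0.01, the interferon-α genes are near-identical copies that a probe may not tell apart, and the call was lost without preparation 1 (-0.88, unadjusted p = 0.231) or 2 (-0.94, unadjusted p = 0.0880).

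Among the 11 receptors, kinases and STATs the median log2 ratio was 0.78. By preparation it was 0.51, 1.42 and 0.0064, so it was largest in preparation 2 and near 0 in preparation 3. Of the 11 genes 8 were above 0 and 1 was past the threshold. That gene was *Ifngr1*, the ligand-binding chain of the interferon-γ receptor, which read 12.07, 11.23 and 11.95 on the replicating arrays and 11.11, 9.56 and 10.996 on the quiescent arrays. Its groups did not overlap, with replicating above as in 9.69% of all genes. The log2 ratios by preparation were 0.96, 1.67 and 0.96 (mean 1.19 ± 0.34, unadjusted p = 0.0154). The call was lost without preparation 1 (1.31, unadjusted p = 0.0781).

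None of the 8 other interferon regulatory factors passed the threshold, and 4 lay on each side of 0. Of the 8 negative regulators 7 were above 0, and *Pias1*, an inhibitor of cytokine signalling, was higher (1.53 ± 0.45, unadjusted p = 0.0185). *Usp18*, the protease that removes ISG15 from proteins, had a log2 ratio of 0.92 ± 0.38 (unadjusted p = 0.0569), and 0.56 without preparation 2. Its replicating arrays all lay above its quiescent arrays, as in 9.69% of all genes. Among 13 nucleic acid sensors and their signalling partners, the kinase *Ikbke* was higher (1.14 ± 0.38, unadjusted p = 0.0291). Without preparation 1 neither *Pias1* (1.43, unadjusted p = 0.108) nor *Ikbke* (1.13, unadjusted p = 0.143) passed, and *Ikbke* did not pass without preparation 2 (0.83, unadjusted p = 0.0871).

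Of 60 other antiviral effectors, 36 had a log2 ratio above 0, 5 were higher by the threshold and none was lower, with a median of 0.15. The 5 were *Ifitm1* (1.32 ± 0.31) and *Ifitm2* (1.30 ± 0.40), membrane proteins that hinder viral entry, *Eif2ak2* (1.29 ± 0.36), the RNA-activated kinase PKR, *Adar* (1.07 ± 0.37), an RNA-editing enzyme, and *Gbp2* (1.46 ± 0.56), a guanylate-binding protein. Their unadjusted p lay between 0.00763 (*Ifitm1*) and 0.0479 (*Gbp2*). Members of the *Ifitm* family are close copies, and the other probe of *Eif2ak2* gave 0.27 (unadjusted p = 0.437) and that of *Adar* 0.71 (unadjusted p = 0.0841). Without preparation 1 none of the 5 passed (log2 ratios of 0.90 to 1.57), and without preparation 2 neither *Ifitm2* (0.88), *Adar* (0.89) nor *Gbp2* (0.85) did.

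The list of interferon-induced chemokines held 9 genes, among them *Cd274*, *Tnfsf10*, *Casp1* and *Il15*, which do not encode chemokines. Of these 9 genes, 5 had a log2 ratio above 0 and 4 below, with a median of 0.31. By the threshold 3 were higher and none lower. *Ccl2*, which attracts monocytes, read 10.86, 10.13 and 10.20 on the replicating arrays and 7.68, 5.88 and 8.27 on the quiescent arrays, where the preparation 2 spot was not well above background, so that 2 of the 3 quiescent arrays measured it. The log2 ratio was 3.12 ± 0.52 (unadjusted p = 0.00161). Without preparation 2 it was 2.55 (unadjusted p = 0.000677), and it passed the threshold with any 1 preparation left out (2.55 to 3.72). *Cxcl10*, which attracts T cells, read 11.57, 11.52 and 10.60 on the replicating arrays and 8.57, 6.22 and 9.81 on the quiescent arrays. It was 8.17-fold higher (3.03 ± 0.86, unadjusted p = 0.0164), with 1.90 (unadjusted p = 0.0111) without preparation 2 and 3.05 (unadjusted p = 0.0651) without preparation 1. *Cxcl11* was higher by 1.10 ± 0.32 (unadjusted p = 0.0170). The groups of these 3 genes did not overlap, with replicating above as in 9.69% of all genes. Without preparation 1, *Cxcl11* gave 1.14 (unadjusted p = 0.106). *Cxcl9*, chosen after its values were seen, had the lowest log2 ratio of the 150 pathway genes. It read 8.90, 8.24 and 8.47 on the replicating arrays and 10.36, 12.72 and 8.54 on the quiescent arrays, with overlapping groups. Its log2 ratios by preparation were -1.46, -4.48 and -0.072, with a mean of -2.005 ± 0.865 (unadjusted p = 0.0667). The ratio of preparation 2 was the farthest from 0, and a fit without that preparation is not given for *Cxcl9*.

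Antigen presentation genes had a median log2 ratio of 0.25, with 23 of 34 above 0, 6 higher by the threshold and none lower. *RT1-Da*, an MHC class II α chain, read 9.72, 8.41 and 9.49 on the replicating arrays and 7.22, 6.17 and 7.90 on the quiescent arrays. Its log2 ratio of 2.11 ± 0.34 (4.32-fold, unadjusted p = 0.00151) passed the threshold with any 1 preparation left out. *Cd74*, the class II invariant chain, was higher by 1.48 ± 0.40 (unadjusted p = 0.0135). The others were the class I genes *RT1-CE16* (1.20 ± 0.32) and *RT1-CE7* (0.99 ± 0.35), which are near-identical copies and whose other probes gave 0.74 (unadjusted p = 0.14) and 1.20 (unadjusted p = 0.0577), the loading factor *Tapbp* (0.91 ± 0.35) and the chaperone *Pdia3* (1.44 ± 0.54). Each of these 5 lost the call without preparation 1, and *RT1-CE7*, *Tapbp* and *Pdia3* lost it without preparation 2 as well, with log2 ratios of 0.64 to 0.71. Without preparation 3, *RT1-CE16* (1.03), *RT1-CE7* (1.15) and *Tapbp* (0.98) missed the threshold, at unadjusted p of 0.0527 to 0.0867. The immunoproteasome gene *Psmb9* gave 1.02 ± 0.43 (unadjusted p = 0.0644), *Psmb8* -0.06 (unadjusted p = 0.852) and the peptide transporter *Tap1* 0.067 (unadjusted p = 0.90).

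**Figure D4:**
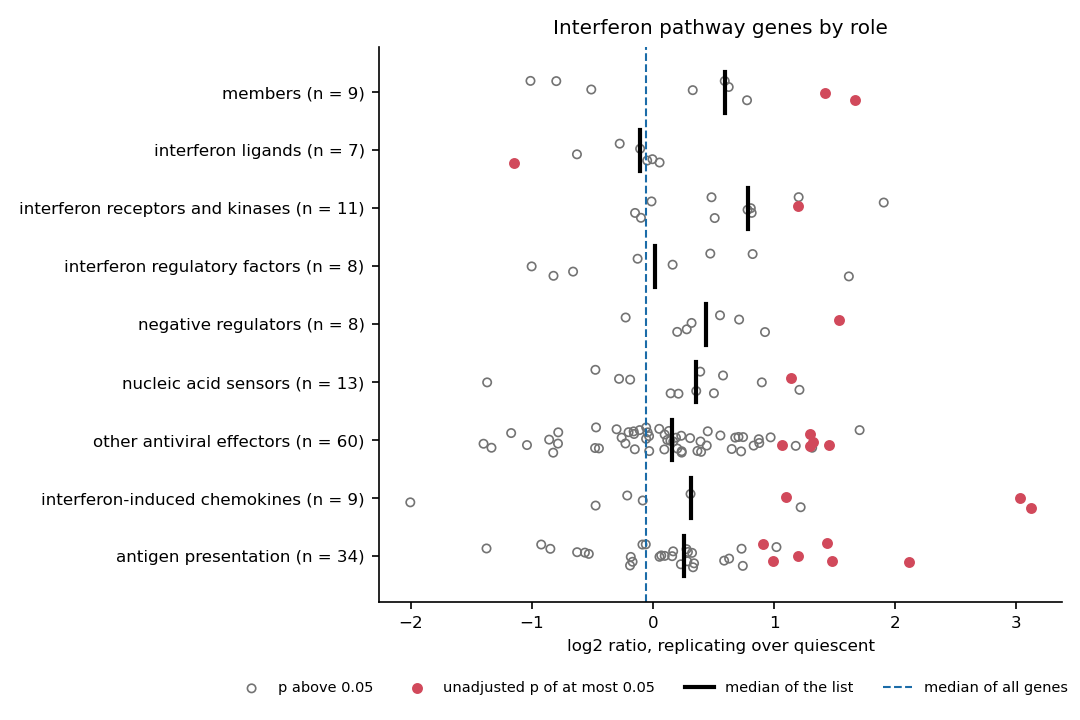
Log2 ratio of replicating over quiescent (horizontal axis) for the 9 interferon response genes and for 8 lists of other interferon pathway genes by role, with 1 point per gene, filled at an unadjusted p of at most 0.05, a bar at the list median and a dashed line at the median of all genes. The 9 genes spread from -1.01 to 1.66, and the points farthest to the right are the chemokines *Ccl2* and *Cxcl10*.

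Markers of other cell types differed between the same samples. Of 12 fibroblast and stellate cell markers all had a log2 ratio above 0 and 5 passed the threshold, with a summed log2 level of 13.81 to 15.34 on the replicating arrays and 12.46 to 12.74 on the quiescent arrays. The collagen gene *Col1a2* was higher by 2.93. Of 20 macrophage and leukocyte markers 10 were above 0 and 3 passed (*C1qc* 1.34, *Cd68* 1.32 and *Cd14* 1.18), with 0.13 for *Itgam* and -0.71 for *Tyrobp*, the brightest of the list. The lowest log2 ratios were those of *Ms4a1* (-1.89), *Cd3g* (-1.47) and *Cd79b* (-1.35), none past the threshold. These genes read highest on the quiescent array of preparation 2, at 10.24, 11.07 and 11.35. The summed log2 level of the list was 13.74 to 14.22 on the replicating and 13.05 to 15.11 on the quiescent arrays. The 15.11 was that of the quiescent array of preparation 2. *Ptprc*, the pan-leukocyte marker, was well above background on 3 replicating and 2 quiescent arrays, whereas *Cd3e*, *Cd163* and *Mrc1* were so on no replicating and 2 quiescent arrays. Of 8 alpha, delta and PP cell markers 7 were above 0 and 4 passed as higher, among them *Gcg* (2.39). Of 9 acinar and duct markers 6 were above 0 and 3 passed as higher, while none of 12 endothelial markers passed. Of 11 β-cell markers 5 were above 0, and *Chga* passed as higher (1.005) and *Mafa* as lower (-1.01). *Cd74*, *RT1-Da* and *Ccl2*, as well as *Irf1* and *Irf7*, are also expressed by such cells, and the part of these cells in the values above was not tested.

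Over the 6 arrays, the genes most like the median profile of the 9 interferon response genes were *Sh3gl3*, *Pabpc1*, *Mbd3*, *Car2* and *Rnf121*, with Pearson's r of 0.992 to 0.999. The 9 genes did not share 1 profile, so the median does not stand for each of them. Between members r was 0.96 for *Irf1* and *Irf9*, but -0.94 for *Ifit3* and *B2m* and -0.89 for *Stat2* and *Mx1*. The 6 arrays share 3 preparations, and 1332 of the 16955 genes searched had an r above 0.9, so such likeness was common on these arrays.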

How the data were processed

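The 6 samples were measured on 1-colour Agilent arrays of 1 slide. The authors amplified the RNA, read the arrays with Agilent Feature Extraction 10.7.3.1 and deposited the intensity of each spot, not normalised between arrays. A table of log2 values, 1 per spot, was deposited by them too. It followed normexp background correction and quantile normalisation in limma, with an offset not given in the sources used here. Values computed here from the intensities at an offset of 50 differed from the deposited log2 values by at most 0.116. Probe positions are on rn4.

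The deposited log2 values were used. Control spots were left out, a spot with an outlier mark was treated as missing, and spots of a probe were averaged, which left 45598 probes. RefSeq names of GRCr8 gave 29326 probes the symbol of 21090 genes, and a gene was represented by its probe of highest mean log2 value over 6 arrays. Each probe was fitted with limma 3.58.1 in R 4.3.3 (lmFit, eBayes), the preparation entering as a block as the study's paired model did, and p was adjusted by Benjamini-Hochberg over all probes. Counts use an unadjusted p of at most 0.05, which the study also used, together with a minimum log2 ratio that is not applied here. The pairing was taken from the replicate number in the sample titles, and the deviations of the arrays so paired correlated at 0.0561, 0.242 and 0.259. Likeness was ranked among genes well above background on all arrays. The number of arrays limits the precision. The members and lists were chosen with earlier results of these data known. Named with values are the 9 genes, every pathway list gene past the threshold, *Ifit1*, *Ifit2*, *Tap1*, *Psmb8*, *Psmb9* and *Usp18*, and markers by counts. A further gene of that rule is not reported here. Alternatives were the background correction, the scaling, filters, the block, the variance trend, the probe summary and leaving out a preparation. The fit was tested on simulated data.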

Additional observations from a re-analysis of the deposited data

How the results depend on the processing

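Of the 9 genes, *Irf1*, *Irf7*, *Stat2*, *Irf9*, *B2m*, *Mx1* and *Mx2* kept their direction under all 13 alternatives. *Isg15* reversed to -0.14 on the scanner's processed signal and -0.074 on normexp values, both scaled to the 75th percentile, and *Ifit3* reversed without preparation 2. On the processed signal *Irf1* (1.61) and *Irf7* (1.23) missed the threshold, as did *Irf7* in the fit without the preparation block (1.42), while *Mx2* passed it with a variance trend (-0.51). With a gene taken as its probes' median, *Irf9* was 0.09, because its other probe carries no value for the quiescent array of preparation 2. Leaving out each preparation in turn gave 0.0095 to 1.53 for *Stat2*, 0.78 to 2.32 for *Irf1*, 1.11 to 1.73 for *Irf7*, 0.25 to 0.97 for *Irf9*, -1.23 to -0.53 for *Mx1*, -0.69 to -0.38 for *Mx2*, 0.12 to 0.59 for *Isg15*, -1.65 to 0.25 for *Ifit3* and 0.045 to 0.87 for *B2m*.

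Of the 9 genes 2 were higher in the reported fit, 0 on the processed signal, 1 without the block and 0 to 3 with a preparation left out, and 0 were lower, against 1 with a variance trend and 0 to 1 with a preparation left out. The 17 higher pathway genes became 11 at a normexp offset of 0, 3 on the processed signal and 2 to 26 with a preparation left out. The 1 lower pathway gene became 0 at an offset of 0, 2 at an offset of 16, 3 on the processed signal, 7 on scaled normexp values, 0 without the block, 3 with a variance trend, 0 with the median over probes and 0 to 11 with a preparation left out. Over all genes, the 1224 higher became 399 on the processed signal and 313 to 2663 with a preparation left out, and the 760 lower became 1266, 2466 on scaled normexp values, 475 without the block, 1153 with a variance trend and 28 to 2400. Probes at an adjusted p of at most 0.05 in limma were 0 in the reported fit, 719 on scaled normexp values, 99 without the block, 61 with a variance trend and 0 to 84 with a preparation left out. Scaling to the 75th percentile moved the median of all genes from -0.05 to -0.58 (processed signal) and -0.35 (normexp), and the share of called genes that were higher from 61.7% to 24% and 28.1%. That share was 73.2% without the block. Relative to all genes, the median of the 9 genes was 0.65 higher in the reported fit, 0.87 and 0.60 under these scalings, 0.31 without preparation 2 and 0.36 with the median over probes. The last value was lowered by the missing *Irf9* value described above.

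Among other named genes, *Ifit2* reversed to -0.047 on the processed signal, *Tap1* to -0.091 and -0.094 under the scalings of processed signal and normexp values, and *Psmb8* to 0.070 and 0.057. With a preparation left out, *Tap1* ranged from -0.37 to 0.72, *Psmb8* from -0.14 to 0.027, *Ins1* from -0.0055 to 0.42, *Itgam* from -0.14 to 0.35 and *Tyrobp* from -1.76 to 0.090. *Itgam* was -0.27 with the median over probes. *Ifit2* gave no value under the filter on dim probes. *Ifit1* kept its direction under all 13 alternatives, but its log2 ratio ranged from -2.59 to -0.11 and passed the threshold under 1 of them. The causes were not tested. With 3 preparations and pooled rats, amplified RNA from fixed cells and signals near background for *Ifit1* and *Ifit2*, differences smaller than the intervals above were not detectable.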
